A study of Mus musculus with 4 samples.

Results

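Serum response factor (Srf), its myocardin-related cofactors Mkl1, Mkl2 and Myocd, its ternary complex cofactors Elk1, Elk3 and Elk4, and the LIM-domain partner Fhl2 were followed in N2a cells after knockdown of Arglu1. The 8 genes were taken by symbol from the deposited table of 22667 mouse genes. Of these, 6 had at least 75 reads summed over the libraries and were compared, among 12497 genes that met the same minimum, and Myocd and Fhl2 did not. Srf mRNA was higher in both libraries from siArglu1 cells, Mkl2 and Elk4 mRNA was lower in both, Elk3 and Elk1 were higher by a smaller amount, and the level of Mkl1 lay on either side of its control depending on the pair. Inclusion of an exon within the Srf coding sequence was also higher in both siArglu1 libraries.

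SRF is a MADS-box transcription factor that binds the CArG box, a run of A and T bases between CC and GG. It works with cofactors of 2 kinds that compete for the same surface of the protein. The MRTFs (Mkl1 and Mkl2, now named Mrtfa and Mrtfb, with myocardin as their muscle-restricted relative) are held in the cytoplasm by unpolymerized actin and enter the nucleus when signalling drives actin into filaments, where they switch on genes of the cytoskeleton. The TCFs (Elk1, Elk3 and Elk4) are ETS-domain proteins phosphorylated by ERK, and together with SRF they switch on immediate early genes of the growth factor response. In neurons and neural cell lines SRF is known for its part in activity-dependent transcription, neurite outgrowth and the upkeep of the actin cytoskeleton.

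N2a (Neuro-2a) is a mouse neuroblastoma cell line. The siControl Veh and siControl Dex groups received a non-targeting control siRNA, and the siArglu1 Veh and siArglu1 Dex groups an siRNA against Arglu1, a nuclear coactivator and splicing factor. All groups shared transfection with a lipid reagent for 48 h. This was followed by 4 h in ethanol vehicle (Veh, 0 nM) or in 100 nM dexamethasone (Dex), a synthetic glucocorticoid. mRNA of 3 cultures was pooled into each of the 4 libraries, so every group was 1 library, the single comparisons below have no test, and the spread between cultures is not known.

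The libraries held 66074574 to 86541444 reads on genes. Intervals are exact 95% intervals of the ratio of read counts (Clopper-Pearson on the split of the reads) and cover counting error only. A log2 ratio of 0.81 in size for knockdown and of 1 for Dex was taken as the threshold, and each count of genes past it is set beside the percentage of all compared genes past it. Arglu1 itself stood at 26.4% of control in vehicle and at 22.5% in Dex. Of 16 neuronal and sympathetic markers 13 reached 1 cRPKM in every library, with Tubb3 and Hand2 high and the neurofilament genes Nefl and Nefm at 0 to 0.03 cRPKM. Reads from bulk cultures cannot tell fewer expressing cells from less RNA per cell.

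The promoter of Srf is shown first, because SRF is known to bind CArG boxes in its own promoter. The sequence is the 250 bases before the RefSeq transcription start (GRCm38.p6, chr17:46556163-46556412, minus strand, written 5′ to 3′), with CArG boxes in capitals.
Srf: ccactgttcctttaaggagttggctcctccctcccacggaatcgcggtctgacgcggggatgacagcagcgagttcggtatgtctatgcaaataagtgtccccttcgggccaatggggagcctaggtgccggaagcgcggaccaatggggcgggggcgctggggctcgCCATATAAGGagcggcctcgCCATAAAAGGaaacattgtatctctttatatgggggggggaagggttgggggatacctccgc
The boxes began 82 and 62 bases before the start. Of 32851 RefSeq promoters cut to the same 250 bases, 1.47% held a CArG box, a motif that reads as itself on both strands. Promoters were found for 7 of the 8 members, and only those of Srf and Fhl2 held a box. No box was found in the promoters of Mkl1, Mkl2, Elk1, Elk3 or Elk4, which says only that these letters are not in this window.

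For comparison, the boxes (RefSeq, GRCm38.p6, written 5′ to 3′, strand in brackets) of both Fhl2 promoters are given with those of 4 cytoskeletal genes whose ratios are reported further on, each with 10 bases on either side and the box in capitals.
Fhl2 distal promoter chr1:43196838-43196867 (-): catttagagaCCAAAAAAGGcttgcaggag
Fhl2 proximal promoter chr1:43163973-43164002 (-): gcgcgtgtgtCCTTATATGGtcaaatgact
Actg1 chr11:120348566-120348595 (-): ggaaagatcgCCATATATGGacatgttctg
Myl9 chr2:156775293-156775322 (+): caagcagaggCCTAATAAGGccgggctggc
Cnn2 chr10:79988534-79988563 (+): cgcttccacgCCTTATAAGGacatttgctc
Vcl chr14:20929161-20929190 (+): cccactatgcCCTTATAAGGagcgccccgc
Such a match is a description and not a measured binding site.

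The levels are given first in cRPKM, reads scaled to the mappable length of the transcript and to the depth of the library, which allows genes of different length to be compared. Srf (ENSMUSG00000015605, GRCm38 chr17:46548329-46556175) was the most abundant of the 8 genes in each library. It stood at 18.52 and 18.19 cRPKM in the siControl libraries (Veh, then Dex) and at 30.09 and 31.96 in the siArglu1 libraries. These levels rest on 4949, 5239, 8103 and 11185 reads, and both siArglu1 libraries lay above both siControl libraries. Srf was above 63.3% of the compared genes in siControl Veh and above 75.6% in siArglu1 Veh. On the log2 scale of read counts scaled to library size (CPM), the knockdown difference was 0.73 (interval 0.68 to 0.78) in vehicle and 0.805 (0.76 to 0.85) in Dex. Neither was past the threshold of 0.81, and the value in Dex lay just under it. The Dex difference of Srf was -0.017 (-0.074 to 0.039) in siControl cells and 0.054 (0.013 to 0.096) in siArglu1 cells, so the Srf level differed more by knockdown than by Dex.

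**Figure D1:**
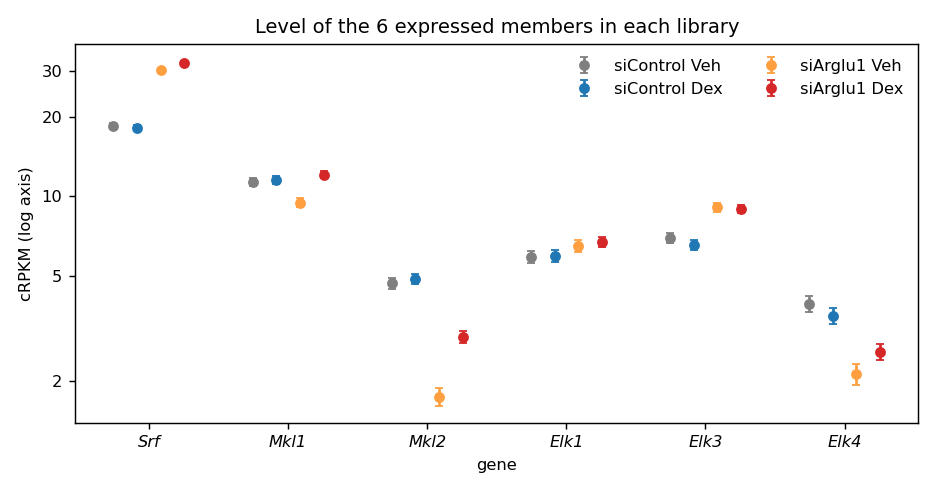
Level of Srf, the MRTFs Mkl1 and Mkl2 and the TCFs Elk1, Elk3 and Elk4 in cRPKM (log axis) in each of the 4 libraries, with exact 95% intervals of the read count as bars. Srf stood at 18.19 to 18.52 in the siControl libraries and at 30.09 to 31.96 in the siArglu1 libraries, while Mkl2 was at 1.74 and 2.94 in the latter.

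Among the MRTFs, Mkl1 (ENSMUSG00000042292, GRCm38 chr15:81012281-81190757) was the more abundant. Its level was 11.33 cRPKM (3073 reads) in siControl cells in vehicle and 11.51 (3364 reads) in Dex, against 9.48 (2591 reads) and 12.07 (4288 reads) in siArglu1 cells. The siArglu1 Veh library was thus the lowest and the siArglu1 Dex library the highest. The log2 ratio for knockdown was -0.22 (-0.30 to -0.15) in vehicle and 0.061 (-0.0042 to 0.13) in Dex, the latter with an interval that holds 0.

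Mkl2 (ENSMUSG00000009569, GRCm38 chr16:13256481-13417529) had the largest knockdown difference of the 6 members in vehicle, and in Dex that of Srf was larger in size. It stood at 4.68 (1782 reads) and 4.86 cRPKM (1998 reads) in siControl cells in vehicle and Dex, and 1.74 (668 reads) and 2.94 (1466 reads) in siArglu1 cells. Both siArglu1 libraries were lower than both siControl libraries, and the siArglu1 Veh library was the lowest. Mkl2 was at 38.1% of control in vehicle (log2 ratio -1.39, -1.52 to -1.26) and at 60.1% in Dex (log2 ratio -0.74, -0.83 to -0.64). The ratio in vehicle was lower than that of all but 2.31% of the compared genes, and that in Dex lower than all but 7.17%. The Dex difference was 0.065 (-0.027 to 0.16) in siControl cells and 0.72 (0.59 to 0.86) in siArglu1 cells, the largest Dex difference of the 6 members.

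Myocd (ENSMUSG00000020542, GRCm38 chr11:65176561-65269989), the muscle-restricted myocardin, had 0 reads in every library, which allows a level of up to 0.0347 to 0.0454 CPM if 3 reads are taken as the limit of a count of 0. Mkl1 made up most of the measured MRTF mRNA, and its share of the summed cRPKM of Mkl1 and Mkl2 was 70.8% and 70.3% in siControl cells (vehicle, then Dex) and 84.5% and 80.4% in siArglu1 cells.

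Of the TCFs, Elk3 (ENSMUSG00000008398, GRCm38 chr10:93247414-93311135), a TCF that can also act as a repressor, was the most abundant. It stood at 6.97 (1916 reads) and 6.55 cRPKM (1943 reads) in the siControl libraries (Veh, then Dex) and at 9.08 (2517 reads) and 8.98 (3235 reads) in the siArglu1 libraries. Like Srf, it was higher in both siArglu1 libraries, with log2 ratios of 0.42 (0.33 to 0.50) in vehicle and 0.45 (0.37 to 0.53) in Dex. Elk1 (ENSMUSG00000009406, GRCm38 chrX:20933395-20950608), the first described TCF, stood at 5.89 cRPKM (1353 reads) in siControl cells in vehicle and 5.95 (1473 reads) in Dex, against 6.48 (1500 reads) and 6.74 (2027 reads) in siArglu1 cells. Its log2 ratio for knockdown was 0.17 (0.064 to 0.28) in vehicle and 0.17 (0.074 to 0.27) in Dex.

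Elk4 (ENSMUSG00000026436, GRCm38 chr1:132007607-132032612), the TCF also known as SAP-1, went the other way. It stood at 3.91 (883 reads) and 3.52 cRPKM (856 reads) in siControl cells in vehicle and Dex, and 2.12 (483 reads) and 2.57 (759 reads) in siArglu1 cells. Both siArglu1 libraries lay below both siControl libraries, with log2 ratios of -0.85 (-1.01 to -0.69) in vehicle and -0.46 (-0.61 to -0.32) in Dex. Its log2 ratio for Dex was -0.14 (-0.28 to -0.0072) in siControl cells and 0.24 (0.075 to 0.41) in siArglu1 cells.

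Fhl2 (ENSMUSG00000008136, GRCm38 chr1:43123074-43196984), a LIM-domain protein known as a target and partner of SRF, had 1 and 0 reads in siControl cells (vehicle, then Dex) and 2 and 3 in siArglu1 cells. No ratio is given, since all 4 values were at or under 3 reads. Both Fhl2 promoters shown above hold a CArG box, and the gene was near 0 with and without knockdown.

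Against all genes, 2 of the 6 compared members (Mkl2 and Elk4, both lower) were past the threshold for knockdown in vehicle, where 15.8% of the 12497 genes were past it in either direction and 8.77% were lower. In Dex none of the 6 was past it, against a background of 12.1%. With 6 genes, neither share says anything about the members as a group. The members' median log2 ratio was -0.026 in vehicle and 0.12 in Dex, beside 0.0038 and 0.0031 over all genes. For Dex none of the 6 was past a log2 ratio of 1 in siControl cells (0.464% of all genes, 0.32% higher and 0.144% lower) or in siArglu1 cells (0.392%, with 0.328% higher and 0.064% lower). With the spread taken from an additive model in edgeR (quasi-likelihood test) instead, the 4 libraries leave 1 residual degree of freedom and knockdown is taken to act alike in vehicle and Dex. The model called 61.6% of all genes for knockdown (30.8% higher and 30.9% lower) at an adjusted p of 0.05. It called Srf and Elk3 higher and Mkl2 and Elk4 lower. For Dex it called 1.04% of all genes (0.992% higher and 0.048% lower), and of the members Mkl2 as higher, a call that rests on the siArglu1 libraries, where the ratio was 0.72 against 0.065 in siControl cells. The intervals of counting error left out 0 for 6 members for knockdown in vehicle and 5 for knockdown in Dex. They left out 0 for 1 member for Dex in siControl cells and for 4 in siArglu1 cells. The same count over all genes was not made, so these counts say nothing about the members as a group.

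**Figure D2:**
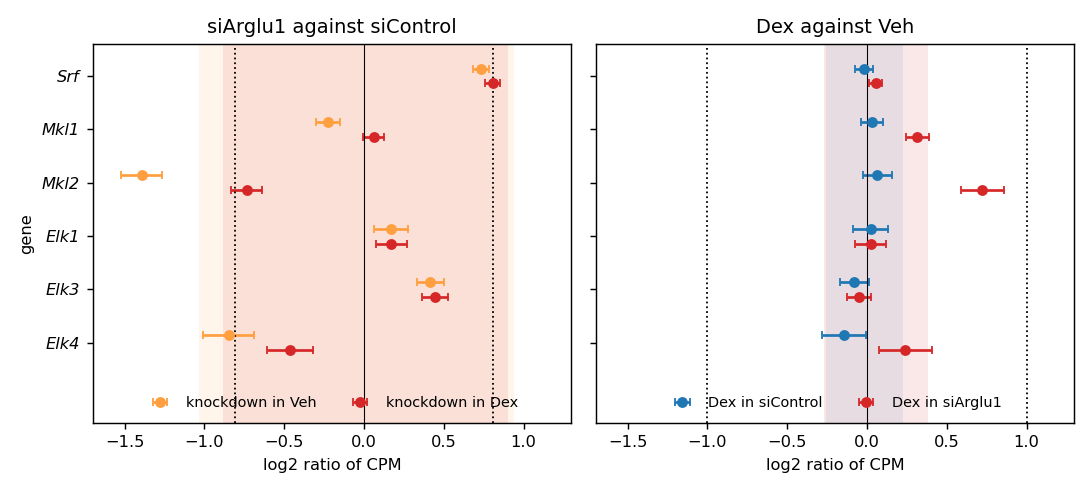
Log2 ratios of CPM for the 6 expressed members, for siArglu1 against siControl (left) and Dex against Veh (right), with exact 95% counting intervals; dotted lines are the thresholds and shaded bands hold the middle 90% of the 12497 compared genes in each comparison. Mkl2 in vehicle (-1.39) lies outside its band on the left, and Mkl2 in siArglu1 cells (0.72) outside its band on the right.

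The siArglu1 Veh library held the lowest level of Mkl1, Mkl2 and Elk4 alike, and it enters both the knockdown comparison in vehicle and the Dex comparison in siArglu1 cells, so a low value there shows in both. The knockdown log2 ratio in Dex minus that in vehicle, which uses all 4 libraries, was 0.66 (0.50 to 0.82) for Mkl2, 0.39 (0.17 to 0.60) for Elk4 and 0.29 (0.19 to 0.38) for Mkl1. The same difference was 0.072 (0.0021 to 0.14) for Srf, 0.031 (-0.087 to 0.15) for Elk3 and 0.00065 (-0.14 to 0.14) for Elk1. These intervals hold no error between cultures.

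Transcript length moved with these ratios. Across 12155 genes with a mappable length, which are not independent replicates, Spearman's rank correlation of log2 ratio and length was -0.40 for knockdown in vehicle, -0.23 for knockdown in Dex, -0.17 for Dex in siControl cells and 0.55 for Dex in siArglu1 cells. Mkl2 was longer than 87.2% of the genes, Elk3, Mkl1 and Srf longer than 74.3%, 73.6% and 72.8%, and Elk1 and Elk4 longer than 64.6% and 63.6%. With the trend on length removed, Mkl2 stood at -1.08 in vehicle and -0.58 in Dex, Srf at 0.89 and 0.88, past the threshold in both pairs, and Elk4 at -0.76 and -0.43, past it in neither. The Dex ratio of Mkl2 in siArglu1 cells was 0.59 after the same step, that of Mkl1 0.25 and that of Elk4 0.20.

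The balance between Srf and its cofactors differed between siControl and siArglu1 libraries. The summed MRTF level was 16.01 and 16.37 cRPKM in the siControl libraries (Veh, then Dex) and 11.22 and 15.01 in the siArglu1 libraries. The summed TCF level was 16.77, 16.02, 17.68 and 18.29 cRPKM in the same order. The TCF sum stayed within 16.02 to 18.29 cRPKM, with Elk4 at 23.3% and 21.97% of it in the siControl libraries and at 11.99% and 14.1% in the siArglu1 libraries.

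The ratio of Srf to summed MRTF mRNA was 1.16 and 1.11 in siControl cells (vehicle, then Dex) and 2.68 and 2.13 in siArglu1 cells. The ratio of Srf to summed TCF mRNA was 1.10 and 1.14 in siControl cells and 1.70 and 1.75 in siArglu1 cells. In cRPKM the order of the members was Srf, Mkl1, Elk3, Elk1, Mkl2, Elk4 in both siControl libraries and in siArglu1 Dex, and in siArglu1 Veh the last places were exchanged, with Mkl2 below Elk4. The intervals of neighbours in this order overlapped for Mkl1 and Elk3 in siArglu1 Veh and for no other pair in any library.

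**Figure D3:**
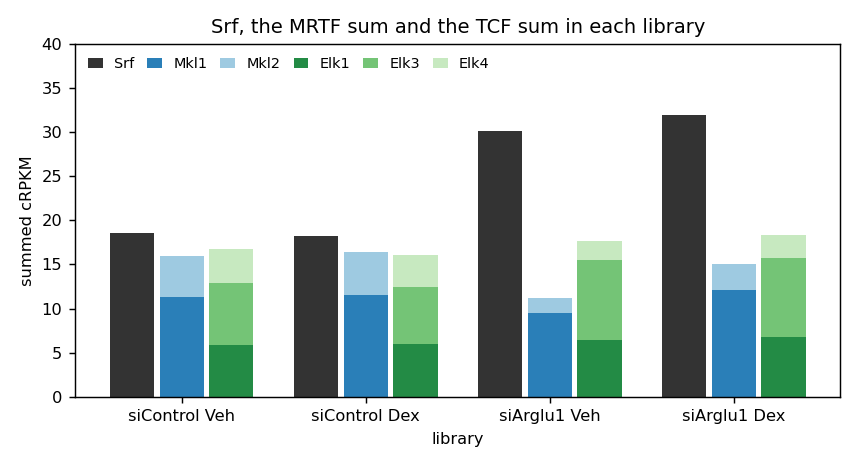
Bars of summed cRPKM in each library for Srf, for the MRTFs (Mkl1 and Mkl2 stacked) and for the TCFs (Elk1, Elk3 and Elk4 stacked). The bars are of similar height in siControl Veh (18.52, 16.01 and 16.77), and in siArglu1 Veh the Srf bar (30.09) stands above the others (11.22 and 17.68).

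Splicing was read from the percent of reads that include an event (percent spliced in, PSI). The members had 25 events, of which 19 could be compared, with 8 of these in Mkl2, 5 in Srf, 3 in Mkl1, 2 in Elk4 and 1 in Elk3. Elk1 had 0 events, and the 3 events of Myocd and the 2 of Fhl2 had no PSI. A difference of 15 PSI was reached by 1 of the 19 in the knockdown comparison in vehicle, where 1.96% of 57183 events reached it, and by 0 in that in Dex (1.52%). For Dex it was reached by 0 in siControl cells (0.717%) and by 1 in siArglu1 cells (0.948%).

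The best covered of the variable events was exon 5 of the 7 exons of Srf, which is skipped in an annotated transcript, Srf-202. Its 192 bases code for 64 residues without a shift of the frame, and the form without this exon is known to lack a stretch of the transactivation domain. The exon lies at chr17:46686794-46686985 in the coordinates of the deposited files (mm9) and was matched in GENCODE M21 (GRCm38, chr17:46549845-46550036, minus strand) by its length and its distances of 864 and 332 bases to the neighbouring exons. It is printed in full, 5′ to 3′, as the sequence that the 2 forms of the mRNA differ by.
Srf exon 5: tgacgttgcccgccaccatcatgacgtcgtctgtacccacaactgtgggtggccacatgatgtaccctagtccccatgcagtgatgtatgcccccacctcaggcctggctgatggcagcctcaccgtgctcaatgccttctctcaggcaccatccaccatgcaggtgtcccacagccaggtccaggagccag
Its GC content is 60.4%.

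The PSI of exon 5 was 73.39 in siControl cells in vehicle and 75.34 in Dex, against 85.97 and 85.69 in siArglu1 cells, with the best coverage score in all 4 libraries. Both siArglu1 libraries lay above both siControl libraries. The knockdown difference was 12.58 PSI in vehicle and 10.35 in Dex, both under the threshold of 15, and the Dex difference was 1.95 PSI in siControl cells and -0.28 in siArglu1 cells. Among 1895 cassette exons with the best score in all libraries and a mean PSI of 10 to 90, 16.99% differed at least as much in either direction for knockdown in vehicle and 21.95% for knockdown in Dex, and 5.75% and 8.71% did so toward more inclusion.

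Reads on single junctions, which count only fragments that cross them, were also available for Srf. The junction of exons 4 and 5 had 164 and 162 reads in siControl cells in vehicle and Dex, and 290 and 430 in siArglu1 cells, a log2 ratio for knockdown of 0.84 (0.56 to 1.13) in vehicle and 1.12 (0.86 to 1.39) in Dex. It is formed only where exon 5 is included, so its reads follow the inclusion of exon 5 as well as the Srf level. The junction of exons 1 and 2 had 228, 229, 262 and 438 reads in the same order, a log2 ratio of 0.22 (-0.039 to 0.49) in vehicle and 0.65 (0.41 to 0.88) in Dex. In vehicle the ratio for the junction of exons 1 and 2 thus held 0 in its interval although the whole-gene ratio was 0.73. The part of this junction in the Srf level was not tested. The other 4 compared events of Srf differed by less than 1 PSI between any 2 libraries.

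The event past 15 PSI was a 63-base exon of Mkl2 (mm9 chr16:13332107-13332169), at 2.44 and 12.73 PSI in siControl cells (vehicle, then Dex) and at 33.33 and 7.14 PSI in siArglu1 cells. The siArglu1 Veh value, which sets both differences past the threshold (30.89 for knockdown in vehicle and -26.19 for Dex in siArglu1 cells), had the lowest coverage score, which the tables that also print reads give to events with at most 9. With the score OK or better required in all 4 libraries, 0 member events were past 15.

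In Elk4, an 870-base exon had a PSI of 97.06 and 95.47 in the siControl libraries (Veh, then Dex) and 93.32 and 85.67 in the siArglu1 libraries, so the siArglu1 Dex library was the lowest. Its 209-base exon had PSI values of 6.73 to 16.37, the highest of them in siArglu1 Veh at a score under LOW. A 131-base exon of Elk3 had PSI values of 91.61 to 97.92, and a 176-base exon of Mkl1 of 93.33 to 98.71. Apart from the 63-base exon, the compared Mkl2 exons were at 0 PSI or at 97.14 to 100 PSI in each library.

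**Figure D4:**
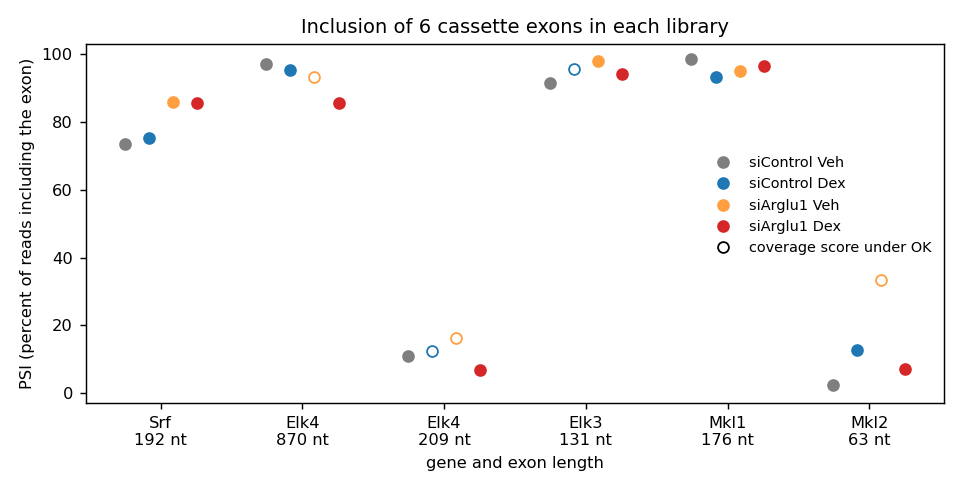
PSI of 6 cassette exons of the members in each library, named by gene and exon length; open circles mark values with a coverage score under OK. Srf exon 5 (192 nt) stands at 73.39 and 75.34 in siControl cells and at 85.97 and 85.69 in siArglu1 cells, and the high value of the Mkl2 exon (33.33) is an open circle.

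The genes that the MRTF and SRF pair is known to drive were followed with a list of 27 cytoskeletal genes, of which 24 were compared. Of these, 15 were past the threshold and higher for knockdown in vehicle (7% of all genes) and 15 in Dex (6.19% of all genes), the same 15 in both, and 0 were lower. Their median log2 ratio was 1.26 in vehicle and 1.25 in Dex, beside 0.0038 and 0.0031 over all genes. Of the 15, 4 (Acta1, Actc1, Cnn1 and Myh11) had fewer than 75 reads over the siControl libraries and met the minimum only through the siArglu1 libraries, where they were high. Among the 20 targets with at least 75 reads in the siControl libraries alone, a choice made after seeing the data, 11 were higher in vehicle (5.68% of 11788 genes) and 11 in Dex (5.03%), with medians of 1.05 and 0.96. The list was drawn up with earlier results of these libraries known, some of these genes among them, so its count is not independent evidence of a direction.

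The 4 largest were Cnn1 (calponin), Actg2 and Acta2 (the smooth muscle actins) and Myl9 (a myosin regulatory light chain). Cnn1 had 6 reads in siControl cells in vehicle and 3 in Dex, against 193 and 194 in siArglu1 cells, a log2 ratio of 4.83 (3.88 to 6.49) in vehicle and 5.33 (4.16 to 8.02) in Dex. Myl9 had 269, 323, 6654 and 8052 reads in the same order, and its log2 ratios were 4.65 (4.47 to 4.83) and 4.35 (4.19 to 4.52). Actg2 had 91, 81, 1974 and 2414 reads, and its ratios were 4.45 (4.16 to 4.78) and 4.59 (4.29 to 4.95). Acta2 had 432, 429, 8739 and 10255 reads, and its ratios were 4.36 (4.22 to 4.50) and 4.29 (4.15 to 4.43), so all 4 genes were higher in both siArglu1 libraries. Acta2 and Actg2 are close paralogs, and a read that fits more than 1 actin gene leaves their separate counts uncertain.

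Of the genes shown above with a CArG box, Myl9 was among these 4, and Cnn2 (another calponin) had log2 ratios of 2.42 in vehicle and 2.29 in Dex. Vcl, the focal adhesion protein vinculin, had ratios of -0.23 and 0.17, and Actg1, cytoplasmic gamma actin, of 0.87 and 0.80. A box before the start was thus present in genes with large ratios and in a gene near 0. The 22 targets with an entry had 23 RefSeq promoters, of which 5 (21.7%) held a CArG box, beside 1.47% of all promoters; many such genes are known as SRF targets through these boxes. Cnn2, Vcl and Actg1 were picked for their boxes and not by the rule for naming genes.

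The largest cytoskeletal differences were in genes of contractile cells, and markers of such cells were therefore read in the same libraries. Of 10 smooth muscle, fibroblast and pericyte markers, 1 (Des, desmin) reached 1 cRPKM, and the summed level was 3.08 and 2.84 cRPKM in siControl cells (vehicle, then Dex) and 3.03 and 3.03 in siArglu1 cells. Des and Pdgfra made up most of this sum (1.74 and 0.74 cRPKM in siControl Veh), so it says little of the other markers. Acta2, Actg2, Cnn1 and Myl9 are not on this list. The collagen gene Col3a1 and the matrix gene Lum had 0 reads in 3 of the 4 libraries and 1 read in siArglu1 Dex. Myh11, smooth muscle myosin, which is on both lists, had 20, 28, 78 and 138 reads in the same order, at most 0.25 cRPKM. The neuronal marker list summed to 1664 and 1597 cRPKM in siControl cells and to 2412 and 2247 in siArglu1 cells. Abundant genes set much of this sum, with Tubb3 alone at 629.58 in siControl Veh and 784.63 in siArglu1 Veh. Not every marker followed it, since Th, Map2 and Dcx were lower in both siArglu1 libraries than in both siControl libraries. The part of this difference in the results was not tested. Of 6 endothelial and blood markers 5 were listed, and none reached 1 cRPKM.

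Immediate early genes, the targets of the TCF and SRF pair, were followed in the same way. Of 11 compared, 0 were past the threshold and higher in vehicle (7% of all genes) or in Dex (6.19%). With 11 genes, a count of 0 lies near these shares. Past the threshold and lower in both pairs were 2 genes, against 8.77% and 5.93% of all genes lower. These were Egr1, a zinc finger transcription factor, and Fosb, a partner of Jun proteins. Egr1 had 2117 and 2499 reads in siControl cells in vehicle and Dex, and 613 and 1037 in siArglu1 cells, a log2 ratio of -1.76 (-1.90 to -1.64) in vehicle and -1.56 (-1.66 to -1.45) in Dex. Fosb had 93, 137, 31 and 50 reads, a ratio of -1.54 (-2.20 to -0.96) and -1.72 (-2.24 to -1.27). The median of the list was -0.40 in vehicle and -0.31 in Dex. The labels give growth in serum and no serum stimulation before harvest.

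Upstream of the MRTFs, 24 genes of small GTPase signalling and actin turnover were compared. In vehicle 3 were past the threshold and higher and 1 lower, and in Dex 2 were higher and 1 lower, with the same shares of all genes beside them as above. Rhoc, a small GTPase, had 5067 and 5164 reads in the siControl libraries (Veh, then Dex) and 13467 and 16515 in the siArglu1 libraries, with log2 ratios of 1.43 and 1.39. Tmsb4x (thymosin beta 4, which binds unpolymerized actin) had ratios of 1.41 and 1.10. Cfl1 (cofilin, which severs actin filaments) had ratios of -1.03 and -1.33. Both siArglu1 libraries lay on the same side of the siControl libraries for each of the 3 genes.

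Upstream of the TCFs, 20 genes of the Ras and ERK pathway were compared. In vehicle 1 was past the threshold and higher and 6 were lower, beside 7% and 8.77% of all genes, and in Dex 1 was higher and 4 were lower, beside 6.19% and 5.93%. Mapk3 (ERK1) had 2510 reads in siControl cells in vehicle and 2457 in Dex, against 6441 and 8263 in siArglu1 cells, with log2 ratios of 1.38 and 1.46. Among those lower in both pairs were the Ras exchange factor Sos1 (-1.74 and -1.55), the ERK phosphatase Dusp6 (-1.02 and -1.08) and the ERK kinase Map2k1 (-0.96 and -1.05). The median of this list was -0.096 in vehicle and -0.15 in Dex.

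Of 12 compared partners and brakes of SRF and MRTF, 4 were past the threshold and higher in vehicle (7% of all genes) and 2 in Dex (6.19%), and 0 were lower. Csrp1 and Csrp2, LIM-domain proteins that bridge SRF and GATA factors, were higher in both. Csrp1 had 5495 and 5997 reads in siControl cells (vehicle, then Dex) and 20750 and 26589 in siArglu1 cells, with log2 ratios of 1.94 and 1.86, and Csrp2 had ratios of 1.26 and 1.10. Of the MADS-box relatives of SRF, Mef2a and Mef2d were compared, and neither was past the threshold (Mef2a at -0.016 and 0.10, Mef2d at -0.44 and -0.34).

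**Figure D5:**
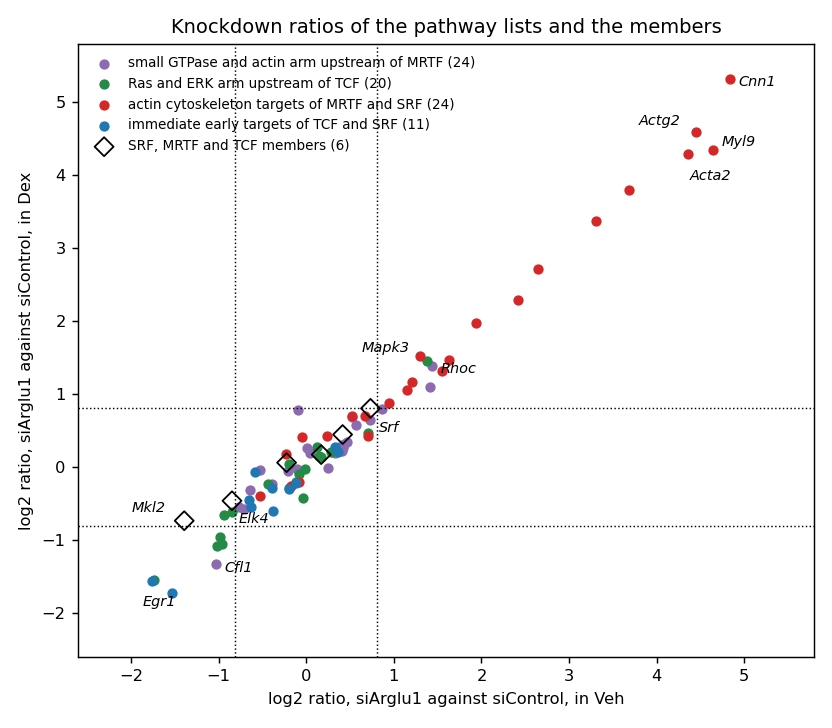
Log2 ratio for knockdown in Vehicle (x axis) and in Dex (y axis) of the compared genes of 4 lists (filled circles, coloured by list, number of genes in brackets) and of the 6 members (open diamonds); dotted lines mark 0.81. Cytoskeletal targets reach from -0.53 to 4.83 in vehicle, while Srf sits at 0.73 and Mkl2 at -1.39, to the left of the left line.

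Dex log2 ratios of the cytoskeletal targets ran from -0.90 to 0.37 in siControl cells and from -0.40 to 0.41 in siArglu1 cells. The value of -0.90 was that of Cnn1, at 6 reads in vehicle and 3 in Dex. Those of the immediate early genes ran from -0.046 to 0.46 in siControl cells and from -0.26 to 0.53 in siArglu1 cells. As a check that the cells responded to Dex, Per1, a known target of the glucocorticoid receptor, had 780 and 3116 reads in siControl cells in vehicle and Dex, and 330 and 2532 in siArglu1 cells, with log2 ratios for Dex of 1.90 in siControl and 2.53 in siArglu1 cells. It was the only 1 of 6 compared glucocorticoid receptor targets past a log2 ratio of 1, in siControl and in siArglu1 cells. The median of the 6 was 0.61 in siControl and 0.72 in siArglu1 cells. The lowest was Dusp1, at -0.15 and -0.078. Of the 24 cytoskeletal targets and the 11 immediate early genes, 0 were past a log2 ratio of 1 for Dex. This held in either direction, in siControl and in siArglu1 cells. Over all genes only 0.464% were past it in siControl and 0.392% in siArglu1 cells, so the 0 is not particular to these lists. The receptor gene Nr3c1 stood at 80.3% of control for knockdown in vehicle and at 93.0% in Dex.

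Patterns over the 4 libraries were compared by the Euclidean distance of log2 CPM, centred for each gene, among 10700 genes with a mean of at least 1 cRPKM. Nearest to Srf was Lrrc8a, a subunit of volume-regulated anion channels, with 2130 and 2247 reads in siControl cells (vehicle, then Dex), 3491 and 4730 in siArglu1 cells, and a distance of 0.022. Next came Gm14698 and Arhgef4, the latter an exchange factor for small GTPases, each at a distance of 0.033. A distance under 0.1 from Srf was shared by 92 genes, and from Mkl2 by 2 genes. The genes nearest to Mkl2 were one listed by identifier alone (ENSMUSG00000090766, distance 0.054), Cep85l (0.089) and Irs2, the insulin receptor substrate (0.10), which had 9211, 11366, 3544 and 7966 reads. With 4 libraries, a small distance describes these libraries only.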

How the data were processed

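The authors pooled mRNA of 3 cultures per group and prepared polyA-selected libraries. The submitters' processing notes name Bowtie and mm9, without roles; versions were not stated there. The authors deposited whole-number read counts and cRPKM values (RPKM corrected for mappable positions) for each gene, and PSI values in percent with coverage scores, which the study's methods credit to vast-tools. In all, 2 unnamed ratio columns of the authors were not used.

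Counts were scaled with TMM factors (edgeR 4.0.16, R 4.3.3) from genes with at least 75 reads over the 4 libraries, and log2 CPM ratios used a prior count of 1. Splicing events without a PSI in every library, or scored under LOW in more than 1, were dropped. Members and lists were chosen with earlier results of these data known. Named genes were all members and, per list, up to 4 genes in each direction past the threshold in both knockdown pairs (for glucocorticoid targets, both Dex pairs), with Arglu1, Nr3c1 and the 3 nearest patterns of Srf and Mkl2. The rule on size was tried on simulated counts with a log2 change of 1.5 in 200 genes. For knockdown in vehicle 98.5% of these genes were recovered, and 34 unchanged genes also passed. The planted change was larger in size than any ratio of the members, so recovery near the threshold was not measured. RefSeq promoters (GRCm38.p6) were matched by symbol. Alternatives were other scaling, prior count, unit, threshold, minimum reads, a length trend removed (lowess, span 0.3), an additive edgeR model, and stricter or no PSI scores. Some listed genes are not reported here by name.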

Additional observations from a re-analysis of the deposited data

Results flagged for a closer look

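The log2 ratio of Elk4 for Dex was -0.144 in siControl cells and 0.241 in siArglu1 cells, opposite directions with intervals that both leave out 0. It was marked because the libraries of the 2 knockdown states moved in opposite directions, and the difference between them was not tested, since each group was 1 library. The 63-base exon of Mkl2 was marked for the same reason. Its PSI differed by 10.29 for Dex in siControl cells and by -26.19 in siArglu1 cells, and by 30.89 for knockdown in vehicle and -5.59 in Dex. These differences were not tested either, and the siArglu1 Veh value behind the largest of them had the lowest coverage score.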

How the results depend on the processing

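No paired analysis was possible because the labels give no replicate numbers that link libraries of different groups, and leaving out a library would empty its group. RLE factors changed no direction and no side of the threshold among the values recomputed under them.

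With the length trend removed, log2 ratios for knockdown in vehicle and in Dex were 0.89 and 0.88 for Srf, -0.063 and 0.14 for Mkl1 and -1.08 and -0.58 for Mkl2; Elk3 in vehicle was 0.58, Srf for Dex in siArglu1 cells was -0.011, members higher were 1 and 1, members lower in vehicle 1, partners higher in vehicle 2, and all genes lower for Dex in siArglu1 cells 3. Members higher for knockdown in Dex were 1 (Srf) with TMM factors from all genes (0.825, chosen after seeing the data) and with total reads (0.813). With no minimum on reads the 1 member higher there was Fhl2, at 0 reads in siControl Dex and 3 in siArglu1 Dex. Fhl2 was then also the 1 member lower for Dex in siControl cells, at 1 read in vehicle and 0 in Dex. At a threshold of 1.5, 0 members were lower in vehicle.

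The additive edgeR quasi-likelihood model (1 residual degree of freedom) assumes that knockdown acts alike in vehicle and Dex, and called 61.6% of genes for knockdown. It called 2 members higher (Srf, Benjamini-Hochberg adjusted p = 9.7e-18, and Elk3, 9.4e-06) and 2 lower (Mkl2, 2.1e-24, and Elk4, 9.1e-09), and for Dex 1 higher (Mkl2, 0.018). These p-values do not measure the spread between cultures, since each library was a pool without a replicate. The assumption was poorly met for Mkl2 and Elk4. Their knockdown log2 ratio in Dex minus that in vehicle was 0.66 and 0.39, beside 0.072 for Srf and 0.031 for Elk3. Over all genes it called 3847 higher and 3857 lower for knockdown, and 124 higher and 6 lower for Dex.

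Over all genes, no minimum on reads gave 1887 higher and 2431 lower for knockdown in vehicle, 1888 and 1840 in Dex, 913 and 934 for Dex in siControl and 610 and 741 in siArglu1 cells. A threshold of 1.5 gave 160 and 227, 156 and 144, 14 and 2, and 12 and 1. For Dex, cRPKM gave 15 and 6 (siControl) and 17 and 0 (siArglu1), and a prior count of 5 gave 8 lower (siControl) and 26 higher with 1 lower (siArglu1).

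Where every library had to score OK or above, 0 member events were past 15 PSI in vehicle and 0 for Dex in siArglu1 cells. All events past it were then 566, 464, 107 and 110 (knockdown in vehicle and in Dex, Dex in siControl and in siArglu1 cells), with no minimum on the score 5363, 4779, 4150 and 4482, and at 25 PSI 218, 184, 50 and 107.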
